A study of Mus musculus with 2 samples.

Results

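Glutathione S-transferases were described in hepatocyte preparations of undamaged and regenerating mouse liver through 10 of their genes, among 27998 genes listed in the files. The genes were chosen by name, and by earlier results of these same libraries in which several of them differed strongly between the time points, so the differences between time points are descriptions and no test was made on them. They comprised Gsta1, Gsta2, Gsta3 and Gsta4 of the alpha class, Gstm1, Gstm2 and Gstm3 of the mu class, Gstp1 and Gstp2 of the pi class, and Gstt1 of the theta class. All 10 were found in the files. Hepatocytes came from C57BL/6 mice per the labels (C57BL/6J males per the methods), aged 10 to 12 weeks per the labels, where the methods give a younger range. One library was made from an undamaged liver (0 h), and the other from the liver of a mouse 48 h after partial hepatectomy (PHx), the removal of most of the liver mass, after which the remnant grows back. Both livers were perfused with collagenase to free the cells, and the methods give 1 mouse, with a portion of its cells, for each library. A droplet assay tagged each captured transcript with a barcode for its droplet and a unique molecular identifier (UMI), so that each molecule was counted once at the 3′ end of its transcript.

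Glutathione S-transferases join the tripeptide glutathione to reactive electrophiles, which makes drugs, toxins and products of lipid peroxidation more soluble and easier to export. The soluble enzymes pair as dimers within classes that arose by gene duplication, and the liver is a major site of their expression. Several of their genes are known to be induced by the transcription factor Nrf2 through antioxidant response elements, and by the xenobiotic receptors CAR and PXR.

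The 0 h library held 59202 barcodes and 96118593 UMIs, and the 48 h library held 1586 barcodes and 18198719 UMIs. Barcodes were taken from both ends of the range of mitochondrial (mt) share, because the droplets of these libraries differed widely in it. Above 30% mt there were 3870 barcodes at 0 h (6.54%) and 765 at 48 h (48.2%), and under 2% mt there were 52587 (88.8%) and 522 (32.9%). The 0 h sets were shallower. Median UMIs outside the mitochondrial genome were 1213.5 at 0 h and 4411 at 48 h above 30% mt, and 1413 and 5271.5 under 2% mt. After its filters, the paper kept far fewer cells at 0 h than either 0 h set held. The sets of the 2 time points are thus not like populations of barcodes. Levels are given in CPM, the UMIs of a gene per 1000000 UMIs of genes outside the mitochondrial genome, summed over a set, with the 95% interval in parentheses. With 1 library per time point there was no replicate check, and every interval covers counting error only. All 10 hepatocyte markers were detected in each of the 4 sets, with Alb, the gene of serum albumin, between 22124 and 51662 CPM. Summed over the lists, markers of Kupffer, endothelial, stromal and cholangiocyte cells were between 20.7 and 190 CPM in every set, red cell markers between 27.6 and 246 CPM, and lymphoid markers at 0 UMIs in both 48 h sets. Doublets were not removed. The 2 libraries shared 148 barcode sequences, and in the 0 h sets these carried 0 (above 30% mt) and 2 (under 2% mt) UMIs of Gsta1.

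The genes lie in few places of the genome, and some are near copies of each other. In GENCODE M21 (GRCm38), Gsta4 (chr9:78182774-78209349, plus strand), Gsta1 (chr9:78230656-78242684, plus) and Gsta2 (chr9:78331018-78355788, minus) lie near each other, and Gsta3 lies apart (chr1:21240589-21265661, plus). The mu genes follow one another on the minus strand as Gstm3 (chr3:107963696-107969283), Gstm2 (chr3:107981702-107986453) and Gstm1 (chr3:108012255-108017973). Gstp1 (chr19:4035407-4037985) and Gstp2 (chr19:4040285-4046023) are neighbours on the minus strand, and Gstt1 is on chr10:75783813-75798584, minus strand. All 10 are annotated as protein coding, and the counts refer to whole genes.

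Sequence likeness limits how far the copies can be told apart, so it was measured on the longest coding transcript of each gene. Gsta1 and Gsta2 were identical at 97.2% of aligned bases, Gstp1 and Gstp2 at 96.2%, and Gstm1 and Gstm3 at 88.1%. Within the last 500 bases, where 3′ counting takes its reads, 74.8% of the 100-base windows of Gsta1 also occur in Gm3776, a gene that is not listed in the files, and none occur in Gsta2. For Gsta2, 6.73% of windows occur in another gene, Gm10639. For Gstp1 67.3% and for Gstp2 77.1% of windows are shared between this pair or with the pseudogene Gstp-ps, and the remaining 6 genes had no shared window. Values of Gstp1 and Gstp2 are therefore uncertain, since a counter may discard or misplace reads of identical sequence, and every value of Gsta1 may include reads of Gm3776.

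The promoters of the close pairs are shown because their members lie near each other on a chromosome and yet were counted at very different levels. RefSeq promoters (GRCm38.p6, 250 bases before to 50 after the start) were found for 9 of the 10 genes, with Gsta4 missing. The alpha pair is written with capitals at bases that have no identical partner in the other promoter, 65 bases in each, and 81.6% of the aligned bases were identical. The intervals are chr9:78230419-78230718 on the plus strand for Gsta1 and chr9:78347096-78347395 on the minus strand for Gsta2.
Gsta1: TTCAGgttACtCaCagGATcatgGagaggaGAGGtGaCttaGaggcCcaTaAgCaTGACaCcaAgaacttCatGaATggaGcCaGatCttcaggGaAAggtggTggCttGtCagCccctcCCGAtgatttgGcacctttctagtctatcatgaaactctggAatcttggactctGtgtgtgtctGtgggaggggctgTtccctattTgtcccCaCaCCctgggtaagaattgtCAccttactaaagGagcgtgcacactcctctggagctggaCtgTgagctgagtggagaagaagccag
Gsta2: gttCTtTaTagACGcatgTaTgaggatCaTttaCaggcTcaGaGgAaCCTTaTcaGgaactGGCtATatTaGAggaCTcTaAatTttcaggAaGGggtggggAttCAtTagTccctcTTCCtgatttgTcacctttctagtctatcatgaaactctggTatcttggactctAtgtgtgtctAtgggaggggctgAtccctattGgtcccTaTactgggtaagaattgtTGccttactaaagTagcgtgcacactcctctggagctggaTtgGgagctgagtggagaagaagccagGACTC

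The pi pair is written with capitals at TGANTCA, the binding motif of AP-1 proteins such as Jun and Fos. The intervals are chr19:4037863-4038162 for Gstp1 and chr19:4042172-4042471 for Gstp2, both on the minus strand.
Gstp1: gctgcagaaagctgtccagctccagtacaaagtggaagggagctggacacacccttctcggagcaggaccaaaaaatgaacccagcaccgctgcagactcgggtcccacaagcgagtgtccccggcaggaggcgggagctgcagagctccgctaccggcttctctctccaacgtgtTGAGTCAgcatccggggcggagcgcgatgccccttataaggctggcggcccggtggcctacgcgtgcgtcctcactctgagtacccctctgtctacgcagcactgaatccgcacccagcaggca
Gstp2: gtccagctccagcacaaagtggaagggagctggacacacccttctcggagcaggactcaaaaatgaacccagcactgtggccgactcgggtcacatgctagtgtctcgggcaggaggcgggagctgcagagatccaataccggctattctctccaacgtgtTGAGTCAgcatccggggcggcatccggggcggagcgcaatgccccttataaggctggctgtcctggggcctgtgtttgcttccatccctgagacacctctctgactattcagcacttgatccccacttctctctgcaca

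The pi promoters were identical at 87.5% of aligned bases. Each held 1 TGANTCA site, which reads as the motif on both strands, beginning 74 bases before the start in Gstp1 and 89 before it in Gstp2. No other member promoter held this motif, and 7.81% of 32851 promoters did. The core of the antioxidant response element, TGACNNNGC, was searched on both strands as well, in this form only. With the bases that follow, both pi sites read TGAGTCAGC, which differs from this core only by G in place of C. Looser forms of the core were not searched, so the pi promoters are not shown to lack such an element. TGACNNNGC occurred in 12.4% of all promoters and in the Gsta3 promoter (chr1:21240335-21240634, plus strand), beginning 121 bases before the start, where its letters are in capitals.
Gsta3: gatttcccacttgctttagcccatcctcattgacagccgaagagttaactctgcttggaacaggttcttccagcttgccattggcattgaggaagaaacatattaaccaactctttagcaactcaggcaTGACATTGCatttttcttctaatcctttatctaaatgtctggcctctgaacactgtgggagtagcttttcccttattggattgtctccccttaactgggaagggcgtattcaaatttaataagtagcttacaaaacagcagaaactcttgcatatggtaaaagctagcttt

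These windows end 250 bases before the start, so elements farther away were not searched.

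Gstm1 and Gsta3 made up most of the glutathione S-transferase transcripts in the 0 h barcodes, whereas Gsta1, Gstp1 and Gstm3 were scarce there and abundant 48 h after PHx. Above 30% mt, the 10 genes together stood at 1519 CPM at 0 h and at 7593 CPM at 48 h, 5-fold higher (4.88 to 5.12). Under 2% mt the sums were 2455 and 12454 CPM, 5.07-fold higher (5.02 to 5.13). Above 30% mt 9 of the 10 genes were over 2-fold higher at 48 h and 0 were over 2-fold lower, where 32.4% of 7418 genes of at least 10 CPM were higher and 5.55% lower. Under 2% mt 8 of 10 were over 2-fold higher and 0 lower, against 26.9% and 22% of 6392 genes. One of these genes, Gstp2, did not reach 10 CPM above 30% mt. The median log2 ratio of the 10 was 2.77 above 30% mt and 2.79 under 2% mt, and that of all genes was 0.59 and 0.11. Because the genes were selected on these ratios, their counts are not evidence about the family.

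**Figure D1:**
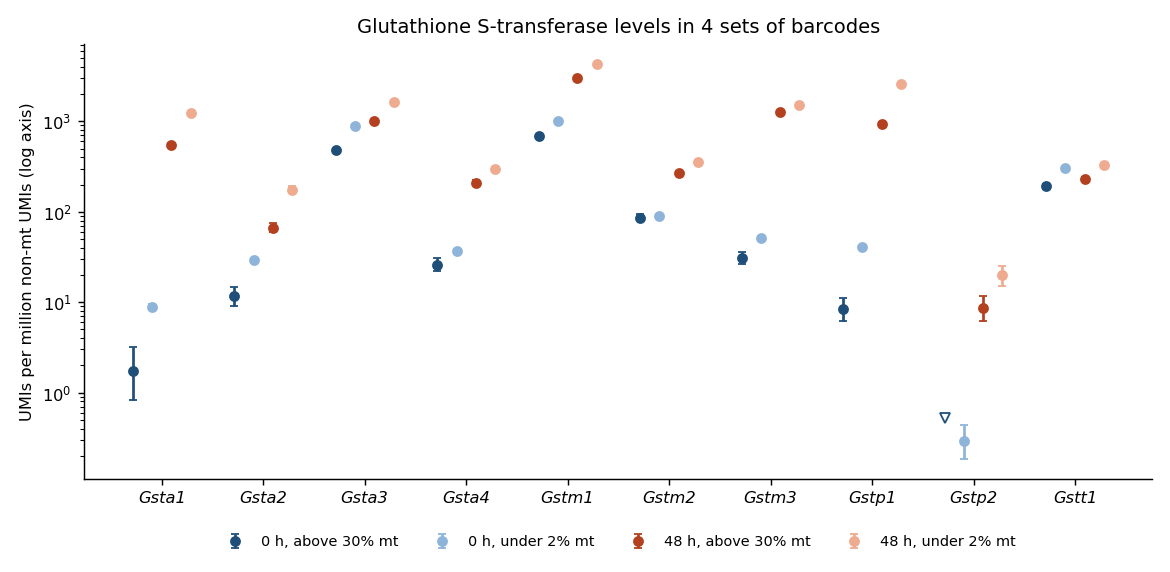
Level of each gene in CPM (log axis) in the 4 sets of barcodes, with bars for the 95% Poisson interval. An open triangle marks the level of 3 UMIs for a count of 0 (Gstp2 at 0 h above 30% mt, 0.519 CPM). Gsta1, Gstm3, Gstp1 and Gstp2 show wide gaps between 0 h and 48 h, and the points of Gstt1 stay between 191 and 326 CPM.

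Gsta1, an alpha enzyme of broad substrate range, had the widest gap of all. Above 30% mt it was counted at 10 UMIs at 0 h, no more than 1 in any barcode, or 1.73 CPM (0.83 to 3.18), and at 2822 UMIs at 48 h, or 553 CPM (533 to 574). The 48 h level was 320-fold higher (173 to 667), ranking 4 among the ratios of 7418 genes. Under 2% mt the levels were 8.76 and 1238 CPM, a 141-fold difference (130 to 153). Its near copy Gsta2 stood at 11.6 and 67.0 CPM above 30% mt, 5.78-fold higher at 48 h (4.44 to 7.63), and at 29.3 and 176 CPM under 2% mt. The order of the pair was thus opposite at the 2 time points. Above 30% mt there were 0.149 UMIs of Gsta1 for each of Gsta2 at 0 h (0.0685 to 0.292) and 8.25 at 48 h (7.37 to 9.26), and under 2% mt 0.299 and 7.02.

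The other alpha genes differed less between the time points. Gsta4, whose enzyme is most active on hydroxyalkenals from lipid peroxidation, was at 26.0 CPM (22.0 to 30.5) at 0 h and 210 CPM (198 to 223) at 48 h above 30% mt, an 8.11-fold difference (6.83 to 9.68), and at 37.1 and 296 CPM under 2% mt. Gsta3, which in mice detoxifies the epoxide of aflatoxin, was the most abundant alpha gene in all 4 sets. It was at 480 and 1010 CPM above 30% mt, 2.10-fold higher at 48 h (2.01 to 2.20), and at 881 and 1654 CPM under 2% mt, 1.88-fold higher (1.83 to 1.93). Relative to the median of all genes, the log2 ratio of Gsta3 was 0.48 above 30% mt and 0.80 under 2% mt, below 2-fold in both.

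The mu genes were all higher at 48 h, by very different factors. Gstm1, the main mu enzyme of liver and the most abundant member in every set, was at 684 CPM (663 to 705) at 0 h and 3038 CPM (2990 to 3086) at 48 h above 30% mt, 4.44-fold higher (4.29 to 4.60). Under 2% mt it was at 1015 and 4264 CPM. Gstm3 was at 31.2 and 1259 CPM above 30% mt, 40.4-fold higher (34.9 to 47.2), and at 50.8 and 1529 CPM under 2% mt, 30.1-fold higher (28.9 to 31.4). For each UMI of Gstm3 there were 21.9 of Gstm1 at 0 h and 2.41 at 48 h above 30% mt, and 19.99 and 2.79 under 2% mt. Gstm2 was at 85.7 and 270 CPM above 30% mt, 3.15-fold higher (2.84 to 3.5), and at 89.8 and 353 CPM under 2% mt. At 0 h Gstm2 was thus above Gstm3, and at 48 h Gstm3 was above Gstm2, in both sets.

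Gstp1 encodes the main pi enzyme, whose rat counterpart is a marker of preneoplastic liver foci. Above 30% mt it was counted at 49 UMIs at 0 h, or 8.48 CPM (6.27 to 11.2), and at 4831 UMIs at 48 h, or 947 CPM (920 to 974), a 112-fold difference (84.3 to 151). Under 2% mt it was at 40.7 and 2599 CPM, 63.9-fold higher (61.4 to 66.6), and ranked second among the members at 48 h. Gstp2 was listed at 0 UMIs at 0 h above 30% mt and at 44 UMIs (8.62 CPM) at 48 h. With the 0 read as 3 UMIs over the set, or 0.519 CPM, the 48 h level was 16.6-fold higher. The exact interval of the ratio began at 12.9-fold, and that of the 0 h level ended at 0.638 CPM. Under 2% mt Gstp2 had 23 and 62 UMIs, or 0.292 and 19.8 CPM. There were 139 UMIs of Gstp1 for each of Gstp2 at 0 h under 2% mt, 110 at 48 h above 30% mt and 131 at 48 h under 2% mt, and the intervals of these 3 ratios overlap.

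Gstt1, a theta enzyme that acts on small halogenated compounds, differed least. It was at 191 CPM (180 to 202) at 0 h and 230 CPM (217 to 244) at 48 h above 30% mt, and at 302 and 326 CPM under 2% mt. The ratios were 1.21 (1.11 to 1.31) and 1.08 (1.01 to 1.15). Relative to the median of all genes the log2 ratios were -0.32 and -0.01. The direction was thus turned above 30% mt. Under 2% mt the log2 interval of Gstt1 (0.014 to 0.197) included the median of all genes, 0.113.

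**Figure D2:**
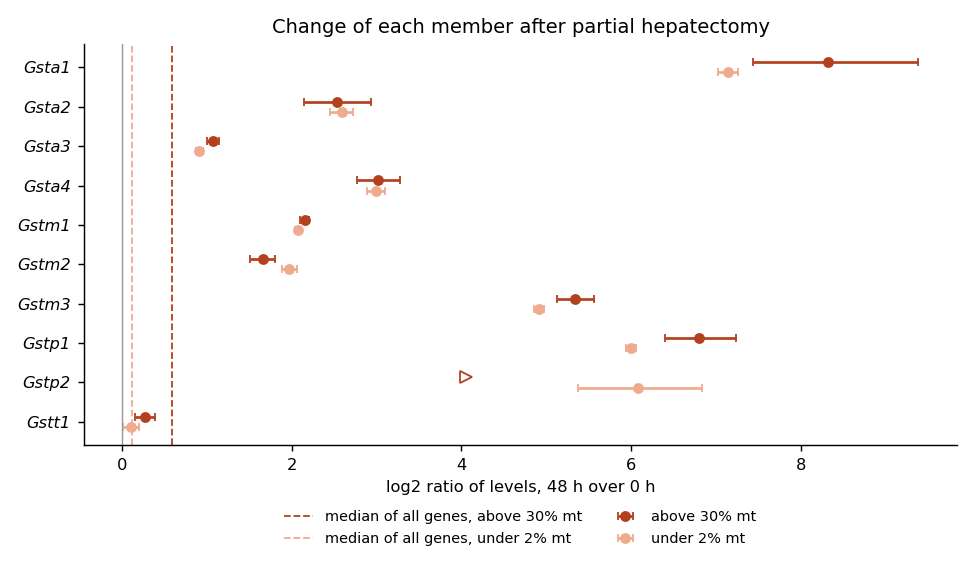
Log2 ratio of the level at 48 h over 0 h for each gene, in barcodes above 30% mt and under 2% mt. Bars show the 95% interval from counting, and dashed lines the median of all genes. An open arrow marks a ratio with a 0 h count of 0 read as 3 UMIs. Gsta1, Gstp1 and Gstm3 lie farthest to the right in the set above 30% mt (8.32, 6.80 and 5.34), and Gstt1 lies between 0 and the median of all genes in both sets.

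The makeup of the 10 genes by class therefore differed between the time points. These shares leave out the family's other genes and are not the makeup of whole classes. The theta class here is Gstt1 alone. Above 30% mt the theta genes Gstt2 and Gstt3, not among the 10, were at 58.0 and 13.0 CPM at 0 h and at 161 and 70.1 CPM at 48 h. Above 30% mt the pi class held 0.558% of the members' UMIs at 0 h (0.413 to 0.737) and 12.6% at 48 h (12.3 to 12.9), and under 2% mt 1.67% and 21%. The theta class held 12.6% and 3.03% above 30% mt, and 12.3% and 2.61% under 2% mt. The alpha class held 34.2% and 24.2%, and 38.9% and 27.0%, with Gsta1 making up 0.114% of the members' UMIs at 0 h and 7.28% at 48 h above 30% mt. The mu class held the largest share in every set, from 47.1% to 60.1%. Shares of UMIs are not shares of protein, and they compare genes counted once per transcript at the 3′ end.

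**Figure D3:**
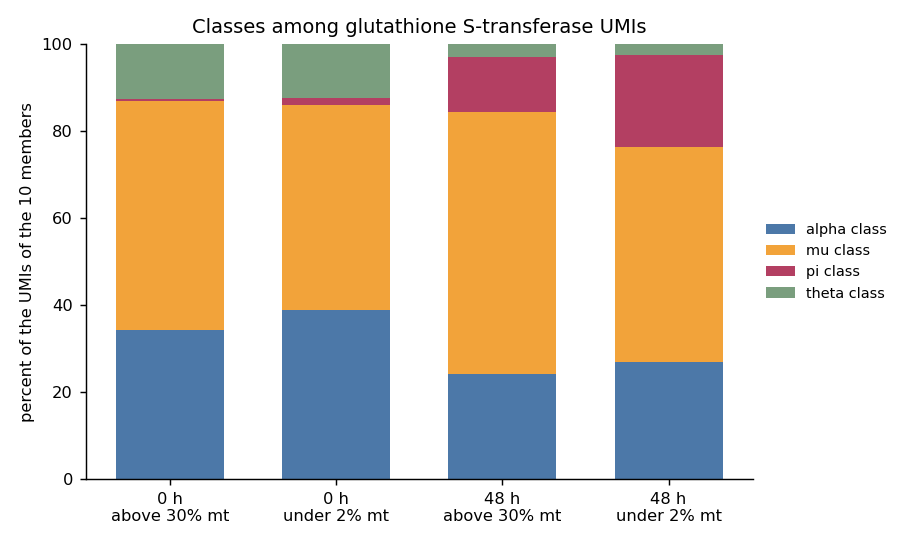
Percent of the UMIs of the 10 genes that fell in each class, in the 4 sets of barcodes, drawn as stacked bars from 0 to 100%. The pi class is a thin band at 0 h (0.558% and 1.67%) and a broad one at 48 h (12.6% and 21%). The theta class, here Gstt1 alone, is broad at 0 h and thin at 48 h.

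Nearly every member was at a lower level above 30% mt than under 2% mt at the same time point. At 0 h, 9 of the 9 members with a ratio were lower, where 47.3% of 6337 genes were higher. Of these members 3 were over 2-fold lower, namely Gsta1 (5.06-fold, 2.74 to 10.6), Gstp1 (4.79-fold) and Gsta2 (2.53-fold). Of the 6337 genes, 10.6% were over 2-fold lower and 13.7% over 2-fold higher. Gsta1 and Gstp2 did not reach 10 CPM in either set and are not among these genes. The interval of Gstm2 (0.957 to 1.15-fold lower) included no difference. At 48 h 10 of 10 were lower, where 68.6% of 7380 genes were higher. Of the 10, 4 were over 2-fold lower, namely Gstp1 (2.75-fold), Gsta2 (2.63-fold), Gstp2 (2.29-fold) and Gsta1 (2.24-fold). Of the 7380 genes, 7.2% were over 2-fold lower and 34.7% over 2-fold higher. No member was over 2-fold higher at either time point. With all UMIs as the denominator, mitochondrial ones included, 8 members at 0 h and 10 at 48 h were over 2-fold lower. So were 52.5% of 5647 genes at 0 h and 43.9% of 5871 genes at 48 h. The median log2 ratios of all genes were then -1.04 and -0.83.

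Levels on either side of the limits were as follows. At 0 h, Gstp1 was at 30.6 CPM in barcodes of 20 to 30% mt and at 11.8 CPM from 30 to 40%, and Gsta1 was at 6.28 and 3.95 CPM. At 48 h, Gstp1 was at 1151 and 968 CPM and Gsta1 at 701 and 640 CPM in the same bins. At the lower limit, Gstp1 was at 2174 CPM in 48 h barcodes of 1 to 2% mt and at 1110 CPM from 2 to 5%, Gsta1 was at 1141 and 566 CPM, and Gstm1 at 3697 and 2129 CPM. Each of these 3 genes was lower just above the limit of 2%, and Gstm1 was again at 4009 CPM from 10 to 20% mt. Of the 48 h barcodes between 2% and 30% mt, 35.1% carried UMIs of 3 or more markers of another cell class, against 2.87% under 2% mt and 3.14% above 30% mt, and the part of this in the levels was not tested.

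**Figure D4:**
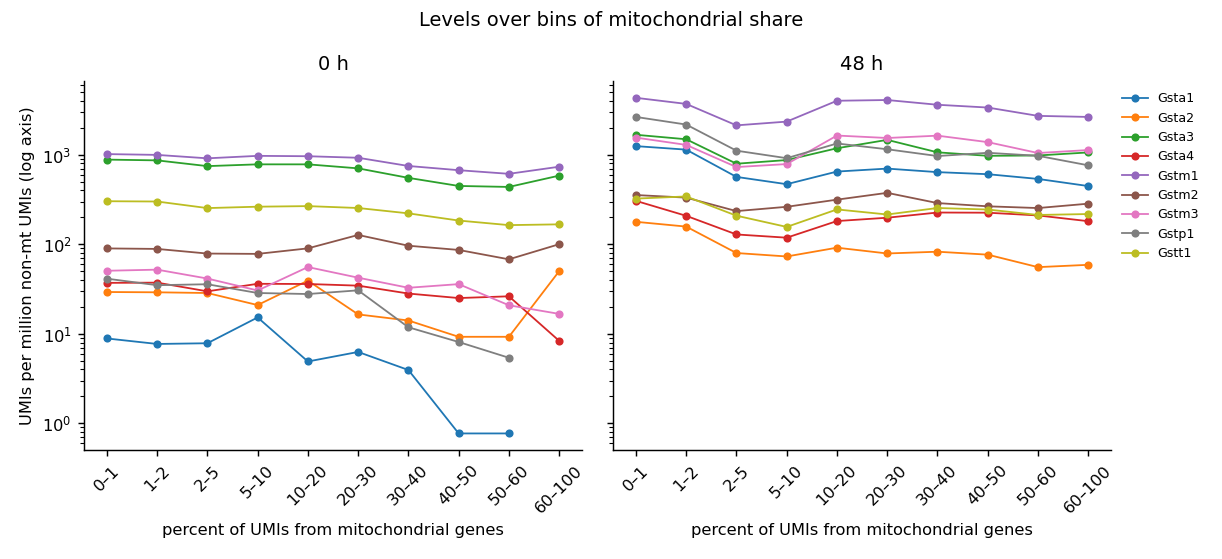
Levels of 9 genes (Gstp2 is left out for its low counts) in CPM on a log axis, over bins of the mitochondrial share of UMIs, at 0 h and 48 h; points at 0 UMIs are not drawn, and counting intervals are left out for legibility. Lines of Gsta1 and Gstp1 descend over the high bins at 0 h, and at 48 h all lines dip between 2% and 10% mt.

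Free transcripts from broken cells can enter any droplet, so the levels were also read in barcodes marked by other cell types. Above 30% mt at 48 h, the 24 barcodes with 3 or more markers of another class had Gstp1 at 1003 CPM and Gsta1 at 663 CPM, and the 741 others had 943 and 546 CPM. Under 2% mt at 0 h, 320 such barcodes had Gstp1 at 45.1 CPM and Gsta1 at 9.02 CPM, against 40.6 and 8.76 CPM in the 52267 others. Alb, a transcript of hepatocytes, was abundant in these barcodes but lower than in the others. It was at 46269 against 51992 CPM at 48 h and 37149 against 47935 CPM at 0 h. The marked barcodes were deeper, with medians of 10282.5 against 4226 UMIs outside the mitochondrial genome at 48 h and 1827.5 against 1412 at 0 h. The part of depth in their marking was not tested. Which molecules came from the cell in the droplet could not be told apart.

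The spread of the members from barcode to barcode was set against that of pure counting. It was measured as the squared deviation from the count expected at each barcode's depth over that expected count, which is 1 for pure counting. Under 2% mt at 0 h it lay between 1 and 1.13 for all 10 genes. The median of 2629 genes with at least 0.05 UMIs per barcode was 1.04 in that set. Whether each of these barcodes held a cell was not tested. Above 30% mt at 0 h it was 1.52 for Gstm1, 1.40 for Gstm2 and 1.34 for Gsta3. Above 30% mt at 48 h it was 6.86 for Gstm3, 6.81 for Gstm1, 2.91 for Gsta3 and 2.01 for Gstm2. This measure grows with the mean count, so its values are not comparable between genes or time points. The variance in excess of counting over the squared mean, which does not grow in that way, was 0.393 for Gstm3 and 0.315 for Gstm2 in the 48 h set above 30% mt. Among the other 6 members with at least 1 UMI per barcode it lay between 0.0864 (Gstt1) and 0.162 (Gstm1), so that by this measure Gstm3 and Gstm2 were the most uneven of these 8 genes there. Under 2% mt at 0 h it was 0.0786 for Gstm1 and 0.0674 for Gsta3. Over all 10 genes it ran from -0.966 (Gstp2) to 4.24 (Gsta1), the scarcest members there. The values near 1 in that set therefore do not show that its barcodes were alike in the scarce members. In single 48 h barcodes above 30% mt, Gstm3 ranged from 365 CPM at the 10th percentile to 2324 CPM at the 90th around a median of 1083 CPM, and Gstm1 from 1385 to 4732 CPM around 2822 CPM.

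Several members differed between barcodes of perivenous and periportal character. Hepatocytes near the central vein and near the portal tract differ in metabolism, and xenobiotic enzymes are known to be richer near the vein. Barcodes above 30% mt with at least 10 UMIs of 16 perivenous and 15 periportal genes, none of them members, were ranked by the perivenous share and cut in 3 groups of like size, and the outer groups were compared. At 0 h the perivenous group (1014 barcodes) was richer than the periportal group (1028 barcodes) in 5 members by over 2-fold and poorer in 1, where 9.45% of 6520 genes were over 2-fold higher and 2.38% lower. The median of all genes was 0.29 on the log2 scale. At 48 h 2 members were over 2-fold richer in the perivenous group and 0 poorer, against 3.62% and 2.35% of 7651 genes, with a median of 0.09.

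Gstm2 had the steepest contrast at 0 h, with 23.0 CPM in the periportal group and 256 CPM in the perivenous group, 11.1-fold higher. Gstm3 was at 15.0 and 72.3 CPM, Gstm1 at 421 and 1204 CPM, Gsta3 at 293 and 825 CPM, and Gstt1 at 142 and 328 CPM. Gstp1 lay the other way, at 11.5 CPM in the periportal and 4.38 CPM in the perivenous group, from 23 and 6 UMIs, with a log2 ratio of -1.39 (-2.98 to -0.06). Gsta4 had a log2 ratio of 0.94 (0.30 to 1.59), and Gsta1 with 3 and 2 UMIs was too scarce to place. Gstm2, Gstm3, Gstm1, Gsta3 and Gstt1 were thus higher in the perivenous group at 0 h, where Alb lay the other way, with 56793 CPM in the periportal and 22240 CPM in the perivenous group.

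At 48 h the contrast was narrower for several members. Gstm2 was at 177 CPM in the periportal and 455 CPM in the perivenous group, 2.57-fold higher, and Gsta3 at 725 and 1575 CPM, 2.17-fold higher. The log2 ratio of Gstm1 was 1.52 (1.40 to 1.64) at 0 h and 0.23 (0.17 to 0.28) at 48 h, that of Gstm3 2.27 (1.67 to 2.91) and 0.24 (0.15 to 0.33), and that of Gstt1 1.21 (0.99 to 1.43) and 0.33 (0.13 to 0.53). Gsta1, with 553 and 541 CPM, was level across the groups, and Gstp1 was at 1019 CPM in the periportal and 830 CPM in the perivenous group. The intervals of the 2 time points did not overlap for Gstm1, Gstm2, Gstm3, Gsta3, Gsta4 and Gstt1, which compares 1 library with 1 library and not PHx with its absence. The periportal group was also deeper at both time points. Its median was 1520 UMIs outside the mitochondrial genome against 1216 at 0 h, and 6548 against 3683.5 at 48 h. The part of depth in the contrasts of either time point was not tested.

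Under 2% mt at 0 h the groups scarcely differed in the members. The members' sum was 2461 CPM in the periportal and 2460 CPM in the perivenous group, and Gstm2 was at 90.2 and 90.3 CPM. Of 5592 genes 0 were over 2-fold higher in that perivenous group, and 6 were over 2-fold lower. At 48 h 3.59% of 6184 genes were over 2-fold higher and 3.75% over 2-fold lower in the perivenous group, where Gstm2 had a log2 ratio of 0.49 (0.27 to 0.70) and Gstp1 of -0.43 (-0.51 to -0.36).

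**Figure D5:**
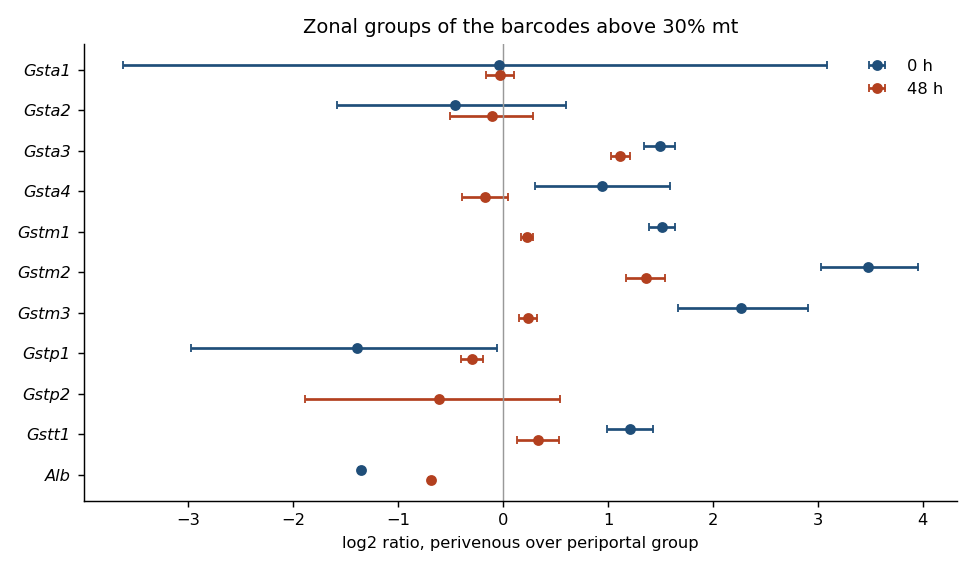
Log2 ratio of each gene between the perivenous and the periportal group of the barcodes above 30% mt, at 0 h and 48 h, with bars for the 95% interval from counting and Alb for comparison; Gstp2 had no UMI at 0 h. Gstm2 lies farthest to the right at both time points (3.48 and 1.36), and Gstm1, Gstm3 and Gstt1 lie nearer to 0 at 48 h than at 0 h.

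Members differed little between barcodes with and without transcripts of cell division. Above 30% mt at 48 h, 74 barcodes held at least 2 UMIs of 25 proliferation genes after thinning to 500 UMIs, and 521 held 0. The members' sum was 7967 CPM in the former and 7487 CPM in the latter. Gstm3 was at 1379 and 1207 CPM, Gstm1 at 3349 and 2968 CPM, Gsta1 at 494 and 568 CPM, and Gstp1 at 976 and 945 CPM. A second thinning gave 1597 and 1228 CPM for Gstm3, 564 and 562 CPM for Gsta1, and 809 and 975 CPM for Gstp1, so the directions of Gstp1 and Gsta1 turned with the draw and nothing is read from them. Gstm1 and Gstm3 were higher in both draws in the barcodes with proliferation UMIs. Under 2% mt Gstm1 was at 4288 against 4339 CPM in the first draw and at 4269 against 4264 CPM in the second.

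No gene reached a rank correlation of 0.3 with any of the 8 members that averaged at least 1 UMI per barcode. Gsta2 and Gstp2 were below that and were left out. Over 761 barcodes above 30% mt at 48 h, each thinned to 1000 UMIs, the highest value among 1278 genes was 0.205, for Gsta3 with Cyp2c29, a perivenous cytochrome. Without barcodes of other marker classes (737 left, 1269 genes) it was 0.285, for Gsta3 with Cyp2e1, another perivenous cytochrome. The barcodes share 1 library and hold few UMIs per gene.

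Glutathione S-transferases beyond these 10 genes differed among themselves. Of 18 listed genes 16 were in the files and 11 reached 10 CPM above 30% mt, of which 3 were over 2-fold higher at 48 h and 0 were over 2-fold lower, beside 32.4% and 5.55% of all genes. Under 2% mt these counts were 3 and 1 of 11, beside 26.9% and 22%. Above 30% mt the log2 ratios were 2.43 for Gstt3, 2.17 for Mgst3 and 1.48 for Gstt2, and 0.54 for Gstm5, which was within 2-fold. Under 2% mt they were 1.51, 2.41, 2.68 and 0.95 in the same order. Mgst1, the microsomal enzyme, was at 5681 CPM at 0 h, above the sum of the 10 members, and at 2888 CPM at 48 h, below theirs, with a log2 ratio of -0.98 above 30% mt and -1.31 under 2% mt. The lowest ratios after it were -0.83 for Gstk1, -0.28 for Gstm6 and -0.13 for Gstz1, a mitochondrial kappa, a mu and a zeta enzyme, and under 2% mt these 3 were at -0.80, 0.80 and 0.71. The mu genes Gstm4, Gstm6 and Gstm7 of the same cluster on chromosome 3, chosen for their place after their values were seen, had log2 ratios of -0.10, -0.28 and -0.02, beside 2.15, 1.66 and 5.34 for Gstm1, Gstm2 and Gstm3. Under 2% mt they had -0.37, 0.80 and -0.11, beside 2.07, 1.97 and 4.91, so that the direction of Gstm6 turned.

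Genes that make, recycle and export glutathione were mixed. Of 18 that reached 10 CPM above 30% mt, 7 were over 2-fold higher at 48 h and 1 was over 2-fold lower, against 32.4% and 5.55% of all genes. Under 2% mt the counts were 7 and 5 of 18, against 26.9% and 22%, and above 30% mt the shares were near those of all genes. The highest log2 ratios above 30% mt were 2.97 for Gss, glutathione synthetase, 2.04 for Cndp2, a dipeptidase that releases amino acids from the breakdown product of glutathione, 1.66 for Gsr, glutathione reductase, and 1.33 for Glrx, a glutaredoxin, and under 2% mt these 4 were at 2.31, 1.13, 1.14 and 1.36. The lowest were -1.08 for Glo1, which clears methylglyoxal with glutathione, -0.66 for the exporter Abcc3, -0.20 for Cth of cysteine synthesis, and 0.06 for Oplah. Under 2% mt these 4 were at -0.81, -1.56, -1.22 and -1.40. The subunits of the rate-limiting ligase, Gclc and Gclm, were at 0.58 and 0.99 above 30% mt and at -1.04 and 0.22 under 2% mt, so that the direction of Gclc turned. These are given for their role and were not among the highest or lowest.

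Among known Nrf2 targets outside this family, 10 of 19 were over 2-fold higher at 48 h above 30% mt and 0 were lower, against 32.4% and 5.55% of all genes. Under 2% mt 6 of 19 were higher and 2 lower, against 26.9% and 22%, so that the share of higher genes was near that of all genes there. The log2 ratios above 30% mt were 3.54 for Cbr1, a carbonyl reductase, 2.72 for the quinone reductase Nqo1, 2.49 for the thioredoxin Txn1 and 2.33 for sulfiredoxin, Srxn1, and under 2% mt they were 2.77, 2.37, 2.20 and 1.81. The lowest were -0.43 for Ces1g, 0.11 for Ephx1, 0.14 for Tkt and 0.22 for Osgin1, which under 2% mt were at -0.73, -1.37, -1.17 and -0.06. Above 30% mt Nqo1 itself was at 2.08 CPM at 0 h and 13.7 CPM at 48 h, far below Gstp1.

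A list of xenobiotic receptor targets split, and it also held the genes of receptors themselves, Nr1i2 (PXR), Nr1i3 (CAR) and Ahr. Of 13 that reached 10 CPM, receptor genes included, 5 were over 2-fold higher and 2 over 2-fold lower at 48 h above 30% mt. Of all genes, 32.4% and 5.55% were. The receptor gene Ahr was among the 5, with a log2 ratio of 1.16. Under 2% mt 3 of 13 were higher and 4 lower, against 26.9% and 22%, and the receptor gene Nr1i2 was among the 3, at 1.07. Above 30% mt the log2 ratios were 1.98 for Cyp2c55, 1.95 for Alas1 of heme synthesis, 1.80 for Cyp2b10 and 1.38 for Por, the reductase that feeds cytochromes P450. Under 2% mt these were at 1.36, 2.69, -0.85 and -0.11, so that the directions of Cyp2b10 and Por turned. The cytochromes Cyp2c29 and Cyp1a2 were lower at 48 h in both sets, at -1.54 and -1.38 above 30% mt and at -2.17 and -2.45 under 2% mt. Those of the Cyp3a family, Cyp3a11 and Cyp3a13, were at -0.09 and -0.06 above 30% mt, and over 2-fold lower under 2% mt, at -1.61 and -1.28. The 4 lists were chosen with earlier results of these libraries known. Their medians above 30% mt were -0.02 for further glutathione S-transferases, 0.90 for glutathione supply and 1.11 for Nrf2 targets. The median was 0.87 for receptor targets together with the receptor genes, and 0.59 for all genes. Under 2% mt the medians were 0.71, 0.26, 0.26 and -0.35 in the same order, beside 0.11 for all genes.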

How the data were processed

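The 2 droplet libraries (10X 3′ chemistry) comprised 1 at 0 h and 1 at 48 h after PHx, and they were grouped by the time point in their labels. The authors made the values with Cell Ranger (version not given in the sources used here) against mm10 per the submitters' processing notes, and deposited raw UMI counts per gene and barcode, before their filters on mitochondrial content and doublets, whose thresholds are not given in the sources used here. The annotation is not given either. The members and lists were chosen with earlier results of these data known. Barcodes were set apart by mitochondrial share (above 30%, under 2%; 13 mitochondrial genes), and counts were summed per set and divided by the UMIs outside those genes. Levels have exact Poisson intervals, ratios exact conditional binomial intervals and shares exact Clopper-Pearson intervals (95%), covering counting error only. With 1 library per group there is no test and no p-value. A count of 0 was read as 3 UMIs. Ratios over all genes add 0.5 UMIs and need 10 CPM in either set. All 10 members are named, and from each list up to 4 highest and 4 lowest log2 ratios above 30% mt, among genes of at least 10 CPM in either set. Genes similar to a member were named at a rank correlation of at least 0.3. Python 3.11.15, NumPy 2.4.6, SciPy 1.17.1 and pandas 2.3.3 were used, and the ratio and spread calculations were tested on simulated data. Alternatives changed the limits, the denominator, the minimum level and the barcodes used, and those on zonal groups were chosen after seeing the data. Bulk and chromatin data were not analysed here.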

Additional observations from a re-analysis of the deposited data

How the results depend on the processing

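No paired analysis was possible because each time point has 1 library, and for the same reason no replicate could be left out. Of the 427 alternative values, 302 stayed within the counting interval, or within 1.5 times for counts, 125 moved beyond it, and 0 turned a difference of over 2-fold. With all UMIs as the denominator, 8 members at 0 h and 10 at 48 h were over 2-fold lower above 30% mt. Of all genes, 52.5% and 43.9% were lower by that much than under 2% mt. With the median log2 ratio set to 0, 8 members were over 2-fold lower at 48 h, beside 20.7% of all genes. Gsta3 passed 2-fold above 30% mt as reported, and its log2 ratio was 0.81 with all UMIs, 0.82 without the 20 most abundant genes and 0.48 with the median set to 0. Gstt1 ranged from -0.32 to 0.39 above 30% mt. Over the same alternatives the log2 ratio of Gsta1 stayed between 7.73 and 9.45, of Gstp1 between 6.21 and 7.47, and of Gstm3 between 4.75 and 5.72. Of all genes over 2-fold apart at 48 h above 30% mt, 85.4% were higher as reported, 69.4% with all UMIs, 72.9% without the 20 most abundant genes and 48.2% with the median set to 0. The corresponding shares were 55.0%, 55.1%, 43.1% and 49.7% under 2% mt. Between the sets they were 56.4%, 4.45%, 69.8% and 62.6% at 0 h, and 82.8%, 7.31%, 88.2% and 41.6% at 48 h. The 0 h set above 30% mt limits the precision of scarce members, since Gsta1 rests on 10 UMIs, Gstp1 on 49 and Gstp2 on 0.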
